A study of Mus musculus with 12 samples.

Results

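To follow promoter marking from progenitors to neurons, 10 marker genes were examined, 5 that mark radial glia (Nes, Vim, Fabp7, Slc1a3 and Hopx) and 5 that mark neurons of every class (Dcx, Tubb3, Map2, Stmn2 and Elavl3). They were chosen by name, with earlier results of these data already known, out of 21951 protein-coding genes in an annotation of 55450 genes. A gene's peaks were those that touched the 5 kb on either side of any of its annotated transcription start sites (TSSs) on GRCm38, and its covered bases were the bases under peaks in that window. H3K4me3 was profiled by CUT&Tag, in which an antibody directs a transposase to cut and tag the DNA beside the mark, in 4 regions of the wild-type C57BL/6J embryonic forebrain. These were the medial, lateral and caudal ganglionic eminences (MGE, LGE and CGE), the ventral zones that give rise to inhibitory neurons, and the cortex (CTX, of which the protocol names the somatosensory part), where excitatory neurons are born. No treatment is named for any group. The study names embryonic day 12.5 for this assay, whereas the tissue protocol attached to the samples names both 12.5 and 14.5, and each region was pooled from several embryos of both sexes. The protocol also speaks of combining equal numbers of nuclei from the regions, without saying how their origin was then kept, so the region of a list rests on its label. The 12 libraries (4 of CGE, 3 of CTX, 3 of MGE and 2 of LGE, from 2 replicates in each region) were merged by region before peaks were called. There is thus 1 list of peaks per region, no replicate error and no test, and each difference given here is a description of 4 lists.

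Radial glia line the ventricle, divide and give rise to neurons, and they carry intermediate filaments, a fatty acid binding protein and a glutamate transporter of the glial type. Newborn neurons switch on microtubule proteins and RNA binding proteins soon after leaving the cell cycle. Trimethylation of lysine 4 on histone H3 sits at the starts of active and poised genes, and broad stretches of it often lie over genes that define a cell's identity. Dissected tissue holds both populations, so a peak averages over progenitors and neurons, and fewer marked cells and less mark per cell cannot be told apart.

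All 10 genes had a peak in the MGE, LGE and CGE lists and 9 of 10 had one in CTX, Dcx being the exception. Among all protein-coding genes the share with a peak was 63.8% in CTX, 65.0% in MGE, 64.2% in LGE and 64.6% in CGE. The neuronal genes covered more bases than the radial glia genes in the eminences, where the medians were 2255 against 1884 bases in MGE, 2540 against 2007 in LGE and 2858 against 1947 in CGE. In CTX the medians lay close together, at 1887 bases for the neuronal and 1929 for the radial glia genes. Of the 25 pairs of 1 radial glia and 1 neuronal gene, the radial glia gene covered more in 7 pairs in MGE, 4 in LGE and 3 in CGE, but in 15 in CTX. In LGE and CGE each of those pairs was one with Nes, and 5 of the 15 pairs in CTX were those with Dcx. The CTX count was 8 when each list was limited to its 17284 peaks of highest fold enrichment. Ranked by their highest fold enrichment rather than by width, the radial glia gene was ahead in 18 pairs in LGE and 18 in CGE.

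The lists differ in length and in peak width, which bounds what can be set side by side. They hold 21442 peaks in CTX, 25339 in MGE, 17284 in LGE and 17752 in CGE. The median peak was 563 and 701 bp wide in MGE and CTX, but 1168 and 1240 bp in LGE and CGE. The narrowest was 114 and 122 bp in MGE and CTX, but 243 and 242 bp in LGE and CGE. A marked protein-coding gene covered a median of 1088 bases in CTX, 1044 in MGE, 1402 in LGE and 1497 in CGE. Covered bases are therefore also given as a within-list percentile, the percentage of the 21951 protein-coding genes that covered fewer bases in the same list. The study's methods state a sequencing depth for each replicate before merging, by which CGE was the deepest region and MGE the shallowest, while the figure for 1 CTX replicate is misprinted. CGE also had the widest median peak and MGE the narrowest. The misprint leaves the depth order of CTX and LGE unsure, and their median peaks were 701 and 1168 bp. The part of depth in the differences between lists was not tested. The reads left behind each peak after merging are not in the lists, and a gene without a peak may carry mark below the threshold of the peak caller.

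**Figure D1:**
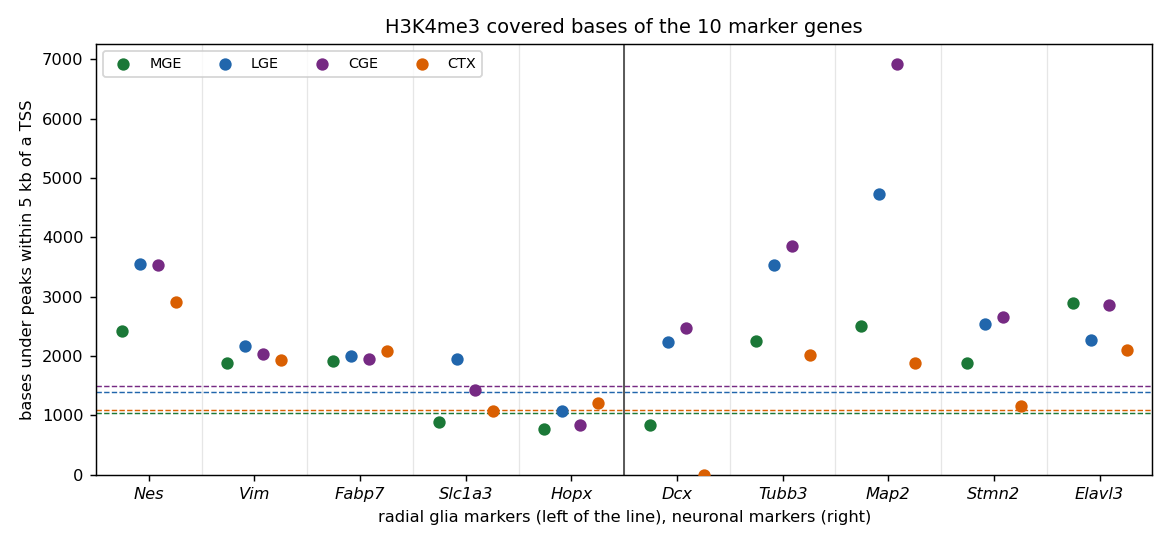
Bases under H3K4me3 peaks within 5 kb of a TSS (vertical axis) for the 5 radial glia markers, left of the line, and the 5 neuronal markers, right of it, with 1 point per region. Dashed lines are the medians of marked protein-coding genes in each list. Map2 reaches 6913 bases in CGE and Dcx lies at 0 in CTX.

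The start regions of 5 of the genes are printed because the results turn on them: Nes and Fabp7 as strongly covered radial glia starts, both starts of Hopx because only one is marked, Dcx because its start has no peak in CTX, and Tubb3 as a neuronal start marked in every list. Each is the 300 bases around a start in RefSeq on GRCm38.p6, most of them upstream of it, and for Dcx the second of its overlapping windows. Sequences were found for 9 of the 10 genes, 11 in all, the gene without one being Stmn2. Capitals mark the searched motifs on either strand, which were the TATA box TATAAA, the GC box GGGCGG, the CCAAT box, TGGGAA (the core read by RBPJ, the Notch effector), the E-boxes CAGATG and CAGCTG, and TTCAGCACC (the left part of the site of REST, a repressor of neuronal genes).
Nes, chr3:87970843-87971142, plus strand: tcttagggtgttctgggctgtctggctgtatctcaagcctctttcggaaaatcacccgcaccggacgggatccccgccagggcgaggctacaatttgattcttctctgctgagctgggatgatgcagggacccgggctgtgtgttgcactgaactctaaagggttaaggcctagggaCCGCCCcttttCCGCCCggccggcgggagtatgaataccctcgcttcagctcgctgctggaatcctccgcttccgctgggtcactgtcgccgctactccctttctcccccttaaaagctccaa
Fabp7, chr10:57784673-57784972, plus strand: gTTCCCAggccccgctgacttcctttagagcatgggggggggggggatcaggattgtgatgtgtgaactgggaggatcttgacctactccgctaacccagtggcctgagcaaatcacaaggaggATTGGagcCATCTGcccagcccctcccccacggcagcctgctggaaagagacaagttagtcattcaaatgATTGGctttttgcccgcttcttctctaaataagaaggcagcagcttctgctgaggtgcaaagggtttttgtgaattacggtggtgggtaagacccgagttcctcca
Hopx, 5′ start, chr5:77115074-77115373, minus strand: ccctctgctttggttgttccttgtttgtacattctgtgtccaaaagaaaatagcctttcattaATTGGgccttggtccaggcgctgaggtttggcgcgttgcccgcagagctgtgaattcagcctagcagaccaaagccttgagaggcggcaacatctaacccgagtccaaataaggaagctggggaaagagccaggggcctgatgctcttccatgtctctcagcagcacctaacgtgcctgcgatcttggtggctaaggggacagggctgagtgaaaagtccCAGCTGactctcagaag
Hopx, internal start, chr5:77095218-77095517, minus strand: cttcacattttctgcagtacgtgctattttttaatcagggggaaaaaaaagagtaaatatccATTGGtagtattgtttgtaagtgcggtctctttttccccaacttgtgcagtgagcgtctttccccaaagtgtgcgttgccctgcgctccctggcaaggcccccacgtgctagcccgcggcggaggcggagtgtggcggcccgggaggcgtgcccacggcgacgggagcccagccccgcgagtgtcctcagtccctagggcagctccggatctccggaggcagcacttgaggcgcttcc
Dcx, chrX:143933075-143933374, minus strand: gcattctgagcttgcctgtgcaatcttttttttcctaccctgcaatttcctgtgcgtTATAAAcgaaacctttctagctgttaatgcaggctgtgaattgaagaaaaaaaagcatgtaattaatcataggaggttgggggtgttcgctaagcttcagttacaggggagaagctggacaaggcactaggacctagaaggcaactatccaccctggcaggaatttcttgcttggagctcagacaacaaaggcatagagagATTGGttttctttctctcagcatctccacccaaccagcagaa
Tubb3, chr8:123411303-123411602, plus strand: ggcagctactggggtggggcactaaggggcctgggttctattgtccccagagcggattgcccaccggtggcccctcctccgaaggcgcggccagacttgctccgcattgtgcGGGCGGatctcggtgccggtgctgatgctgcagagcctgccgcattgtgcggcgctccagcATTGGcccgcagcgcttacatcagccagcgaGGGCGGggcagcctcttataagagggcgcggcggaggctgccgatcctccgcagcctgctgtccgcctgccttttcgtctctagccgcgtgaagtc

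The printed starts differ in base composition. Over all 32851 promoters of this length the median GC content was 52.7% and the median ratio of observed to expected CpG was 0.38. Tubb3 stood at 67.3% and 0.77, Nes at 58.7% and 0.70, and the internal start of Hopx at 59.0% and 0.80, whereas its 5′ start had 53.0% and 0.38. Fabp7, at 54.0% and 0.28, and Dcx, at 44.7% and 0.20, were CpG-poor and still covered, all 300 bases of Fabp7 in every list and 122, 169 and 165 bases of Dcx in MGE, LGE and CGE. The sequence of Map2 was the richest of the 11 in GC, at 77.7%, and that of Elavl3 the richest in CpG, at 0.92.

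Motifs were described in the same windows. GGGCGG, the GC box, occurred 1 time in Slc1a3, 2 times each in Nes, Tubb3 and Elavl3, and 5 times in Map2, and 35.7% of all promoters held it. TATAAA occurred in Vim, Slc1a3, Dcx and Elavl3, and in 13.6% of all promoters. CCAAT, found in 37.4% of all promoters, was absent from the windows of Nes and Map2 and present in the others. TGGGAA and CAGATG each occurred in Fabp7 alone among the 9 genes, and in 25.6% and 17.2% of all promoters. CAGCTG occurred at the 5′ start of Hopx and in Elavl3, and in 16.3% of all promoters. TTCAGCACC was in none of the 11 windows, as in nearly all promoters, of which 0.371% held it. Within 5 kb of the gene's 5′ end it was found beside 2 of the 9 genes, Elavl3 (-1855 to -1847 bp) and Vim (4104 to 4112 bp), and beside 11.4% of 21938 protein-coding genes. Stmn2 is not among the 9, and whether it has such a match was not recorded. Neither match lay under a peak. Matches in the printed sequences did not overlap, and each says only that the letters are there.

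Among the radial glia genes, Nes covered the most bases in every list. Nes encodes nestin, the intermediate filament of neural progenitors, and lies at chr3:87971078-87980451 on the plus strand. It covered 2918 bases in CTX, 2417 in MGE, 3553 in LGE and 3533 in CGE, at the percentiles 98.4, 96.9, 97.9 and 97.0. Nes thus stood near the top of every list, and its percentile was highest in CTX. The domain was 1 unbroken peak in LGE and CGE, 2 peaks in CTX and 3 in MGE. It ran over exon 1, intron 1 and exon 2 into intron 2, the intron that holds the neural enhancer of nestin. Of the 1685 bp of intron 2, peaks covered 746 in CTX, 685 in MGE, 1366 in LGE and 1359 in CGE. Of its bases, 2273 were under a peak in all 4 lists, 61.5% of the bases marked in any. In LGE the highest fold enrichment over the caller's background was 3.23, above that of 8.6% of the peaks in the list, whereas in MGE the peak on the start was 455 bp wide with a fold of 4.88, above that of 54.7%.

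Vim and Fabp7 had domains of nearly constant width. Vim (chr2:13573927-13582826, plus strand) encodes vimentin, a filament protein also found in endothelium and mesenchyme, and covered 1929 bases in CTX, 1884 in MGE, 2167 in LGE and 2041 in CGE. The CTX value includes a separate peak of 186 bp in intron 2, without which the first peak spans 1743 bp, fewer bases than in MGE. A start 5442 bp into Vim had no peak on it in any list. Fabp7 (chr10:57784881-57788450, plus strand) encodes the brain fatty acid binding protein of radial glia and covered 2089 bases in CTX, 1914 in MGE, 2007 in LGE and 1947 in CGE. Of the 10 genes, Fabp7 had the smallest relative spread over the lists. Its main peak reached from upstream of the start through intron 2 into exon 3 in each list. It was wide but weakly enriched: the −log10 q of its best peak was above that of only 38.2%, 31.3%, 33.7% and 34.7% of the peaks in MGE, LGE, CGE and CTX. In CTX 633 of its bases lay upstream of the 5′ end, against 208 in CGE and 308 in LGE. In MGE a separate peak of 130 bp lay further upstream.

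Slc1a3 and Hopx, the other two radial glia genes, had narrower peaks. Slc1a3 (chr15:8634124-8710764, minus strand) encodes the glial glutamate transporter GLAST and covered 1083 bases in CTX, 893 in MGE, 1945 in LGE and 1434 in CGE. LGE stood apart, both in bases and in percentile, at 84.8 against 59.0 in MGE, 64.9 in CGE and 67.7 in CTX. All peaks of Slc1a3 lay on the starts near its 5′ end, and its start groups 59258 and 67517 bp into the gene had no peak in any list. Hopx (chr5:77086988-77115121, minus strand) encodes a small homeodomain protein without DNA binding that marks outer radial glia later in development. It covered 1209 bases in CTX, 774 in MGE, 1070 in LGE and 843 in CGE, at the percentiles 73.8, 52.8, 51.6 and 40.4. The CTX value was the highest on both scales. Of its bases, 142 came from a second small peak in intron 2, without which 1067 remained, fewer than in LGE.

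The mark at Hopx sat on its internal start. The start at the 5′ end of the gene had no peak in any list, while the start 19844 bp further into the gene had one in all 4. This is the contrast between the Hopx sequences printed above, of which the CpG-rich one was covered by 133, 141, 182 and 138 of 300 bases in MGE, LGE, CGE and CTX. The internal peak was narrow and steep in CGE, where its fold of 9.9 exceeded that of 96.3% of peaks, and in MGE its fold was 4.1. An antisense gene, Hopxos, starts 20589 bp from the 5′ end of Hopx. Its TSS lay under the peak in LGE and CTX but not in MGE and CGE, and since peaks carry no strand, the genes cannot be told apart there.

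**Figure D2:**
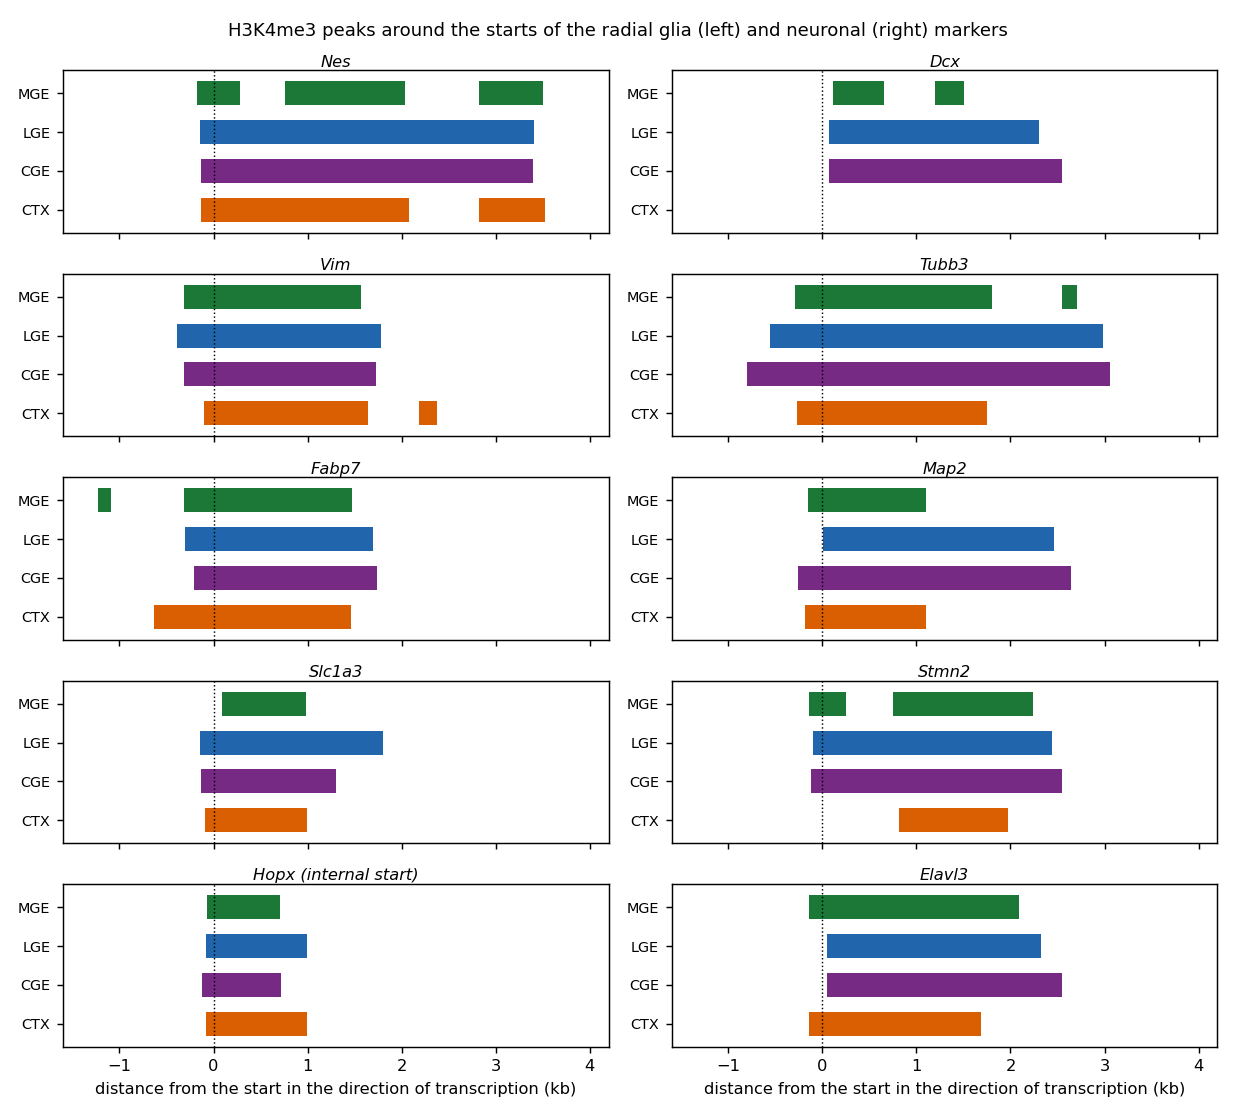
Peaks of each list (bars) by distance in kb from the start of the gene in the direction of transcription, with radial glia markers on the left and neuronal markers on the right. The dotted line is the 5′ end of the gene, or for Hopx its internal start. Of the several marked starts of Map2, the first is drawn. The second Hopx peak in CTX and the peaks inside Elavl3 in MGE, CGE and CTX lie beyond the axis and are not drawn. The Nes domain is unbroken in LGE and CGE, and Dcx has no bar in CTX.

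Among the neuronal genes, the microtubule proteins Map2 and Tubb3 covered the most bases in LGE and CGE, for Map2 as a sum over 4 separate peaks in each. Map2 (chr1:66175273-66442583, plus strand) encodes a dendritic microtubule-associated protein and covered 1887 bases in CTX, 2503 in MGE, 4730 in LGE and 6913 in CGE. CGE was highest and CTX lowest, at the percentiles 99.9 and 91.8, and 1741 of the bases were marked in CGE alone. Map2 has 23 TSSs, so its window of 78714 bases is the largest of the 10 genes and its sum is not like for like with genes of 1 start. Around the 5′ end alone the peak was 1285 bp in CTX, 1255 in MGE, 2455 in LGE and 2903 in CGE. The starts fell into 10 groups, of which 3 carried a peak in every list, at the 5′ end and in groups that begin 146446 and 211672 bp into the gene, and 7 had no peak in any. At the group from 146446 bp the peak on the starts spanned 217 bp in CTX, 493 in MGE, 645 in LGE and 2998 in CGE. A second LGE peak of 881 bp lay within the stretch that was 1 peak in CGE.

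Tubb3 (chr8:123411424-123422015, plus strand) encodes the neuronal β-tubulin known as TUJ1. It covered 2019 bases in CTX, 2255 in MGE, 3537 in LGE and 3855 in CGE, at the percentiles 93.3, 95.9, 97.8 and 97.9. Its value was lowest in CTX on both scales, although it stayed among the most covered genes of each list. The peak began upstream of the TSS and ran through exon 1 into intron 1, and all 2019 bases marked in CTX were marked in the other 3 lists too. The neighbours Mc1r and Gm38092 start inside the 5 kb window, but no peak lay on their TSSs.

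Stmn2 and Elavl3 differed from list to list in where the domain began. Stmn2 (chr3:8509360-8561606, plus strand) encodes a stathmin of growing axons and covered 1164 bases in CTX, 1888 in MGE, 2540 in LGE and 2661 in CGE. The percentile was 71.9 in CTX against 92.5, 93.2 and 92.5 in MGE, LGE and CGE. In LGE and CGE 1 peak spanned the start, in MGE there were 2, on the start and in intron 1, and in CTX the peak in intron 1 alone was listed, 812 to 1975 bp downstream. No annotated TSS of Stmn2 was thus under a peak in CTX. Elavl3 (chr9:22015005-22052023, minus strand) encodes the neuronal RNA binding protein HuC and covered 2095 bases in CTX, 2902 in MGE, 2271 in LGE and 2858 in CGE. MGE and CGE were high and CTX lowest in bases, but by percentile LGE was lowest, at 90.2 against 98.6, 94.0 and 94.1 in MGE, CGE and CTX. In LGE and CGE the peak began 53 and 46 bp inside the gene, just past both 5′ TSSs. Small peaks inside the gene added 675 bases in MGE and 352 in CGE, in intron 3, and 268 in CTX, in intron 6. The peak at the start alone spanned 1827 bp in CTX, 2227 in MGE, 2271 in LGE and 2506 in CGE. Internal starts 50906 bp into Stmn2 and 25649 bp into Elavl3 had no peak on them in any list.

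Dcx was the 1 gene of the 10 without a peak in a list. Dcx (chrX:143855842-143933311, minus strand) encodes doublecortin, a microtubule protein of migrating neurons, and covered 0 bases in CTX, 843 in MGE, 2238 in LGE and 2472 in CGE. It was lower in MGE, at the percentile 56.4, and high in LGE and CGE, at 89.8 and 90.6. The CTX list held no peak anywhere in the gene, and the nearest one lay 268292 bp from its 5′ end. Among protein-coding genes marked in all 3 eminences, 1.79% had no peak in CTX (13 of 467 X-linked genes, 2.78%, and 232 of 13225 autosomal genes, 1.75%). The Dcx peaks were not strong ones of their lists, as their best −log10 q was above that of 49.5% of the peaks in MGE, 25.8% in LGE and 36.1% in CGE. With such values, loss below the caller's threshold in CTX cannot be told apart from absence of the mark.

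To set the regions against each other, CTX and MGE, the lists of narrower peaks, were compared first. This comparison was chosen after the values were seen. All 5 radial glia genes covered more bases in CTX than in MGE, and all 5 neuronal genes covered fewer. Across protein-coding genes with a peak in either list, 56.7% covered more in CTX. The log2 ratio of CTX to MGE was 0.64 for Hopx, 0.28 for Slc1a3, 0.27 for Nes, 0.13 for Fabp7 and 0.03 for Vim. It was -0.16 for Tubb3, -0.41 for Map2, -0.47 for Elavl3 and -0.70 for Stmn2, and has no value for Dcx. For 13644 genes marked in both lists the median was 0.03, with quartiles of -0.09 and 0.18. Vim and Fabp7 therefore lay between the quartiles of all genes, and the other 7 genes with a ratio outside them. By percentile 4 of the 5 radial glia genes were higher in CTX, Vim being lower by a narrow margin at 92.4 against 92.5, and 0 of the 5 neuronal genes. The share of all protein-coding genes that were higher in CTX by percentile was not computed. When peaks less than 1 kb apart were joined, 3 radial glia genes remained ahead in CTX, as the split Nes domain and the 2 Fabp7 peaks of MGE were closed. When each list was limited to its 17284 peaks of highest fold, 3 also remained, with no Nes peak left in CTX. Without the windows of internal starts, 1 neuronal gene, Map2, was ahead in CTX, with peaks of 1285 against 1255 bp.

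**Figure D3:**
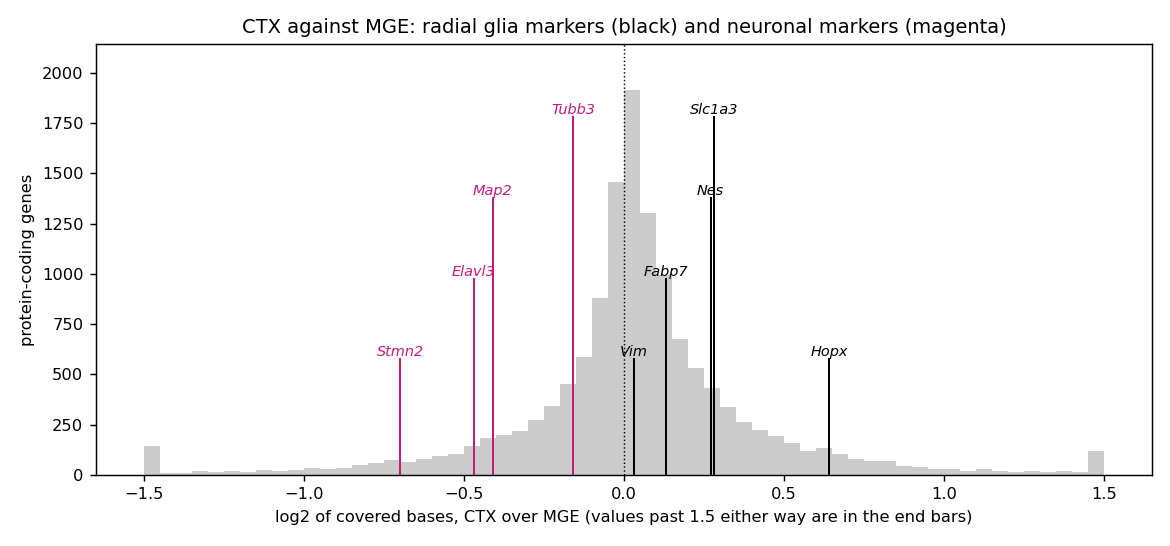
Log2 ratio of covered bases in CTX over MGE (horizontal axis) for 13644 protein-coding genes with a peak in both lists (grey histogram, number of genes on the vertical axis), with the radial glia markers in black and the neuronal markers in magenta. Line heights only separate the labels. Dcx has no ratio because it had no peak in CTX. The 4 neuronal markers lie left of 0 and the 5 radial glia markers right of it.

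LGE and CGE are closer still in peak width, and the remaining pairs further apart, so counts are read against the shares of all genes. Of the 5 radial glia genes 2, Fabp7 and Hopx, covered more in CTX than in CGE, and the same 2 more in CTX than in LGE, where 7.29% and 10.3% of protein-coding genes did. None of the 5 neuronal genes did in either. Against LGE, Hopx was ahead only through its second CTX peak of 142 bp. On its internal start the peak spanned 1067 bp in CTX and 1070 in LGE. The LGE list held no peak narrower than 243 bp. All 5 neuronal genes covered more in CGE than in LGE, as did 80.2% of protein-coding genes, while 0 of the 5 radial glia genes did. The log2 ratio of CGE to LGE ran from -0.44 for Slc1a3 to -0.01 for Nes in the radial glia genes and from 0.07 for Stmn2 to 0.55 for Map2 in the neuronal genes, against a median of 0.07 for all genes. Compared with MGE, CGE and LGE covered more at each radial glia gene and at 4 of 5 neuronal genes, Elavl3 being the exception, and at 93.1% and 90.2% of protein-coding genes. These comparisons share lists and are not independent of each other. Covered bases rose in the order CTX, MGE, LGE, CGE at 4 of 5 neuronal genes (Dcx, Tubb3, Map2 and Stmn2), at 0 of 5 radial glia genes and at 27.3% of protein-coding genes marked in any list. At the start of Elavl3 alone the peak spanned 1827 bp in CTX, 2227 in MGE, 2271 in LGE and 2506 in CGE, the same order. Its exception thus came from the peak of 675 bp in intron 3 in MGE.

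Ranked within lists, CTX was the lowest of the 4 for 4 of 5 neuronal genes, Elavl3 being the exception, and for 0 of 5 radial glia genes. The share was 21.1% among protein-coding genes with a peak in any list. CTX was the highest for 3 of 5 radial glia genes (Nes, Fabp7 and Hopx) and for 0 of 5 neuronal genes, against 31.4% of protein-coding genes. The order of the 10 genes within a list was led by Elavl3 in MGE, Map2 in LGE and CGE and Nes in CTX. Without its peak in intron 3, Elavl3 covered 2227 bases in MGE, fewer than Nes with 2417. At the bottom were Hopx in MGE, LGE and CGE and Dcx in CTX.

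**Figure D4:**
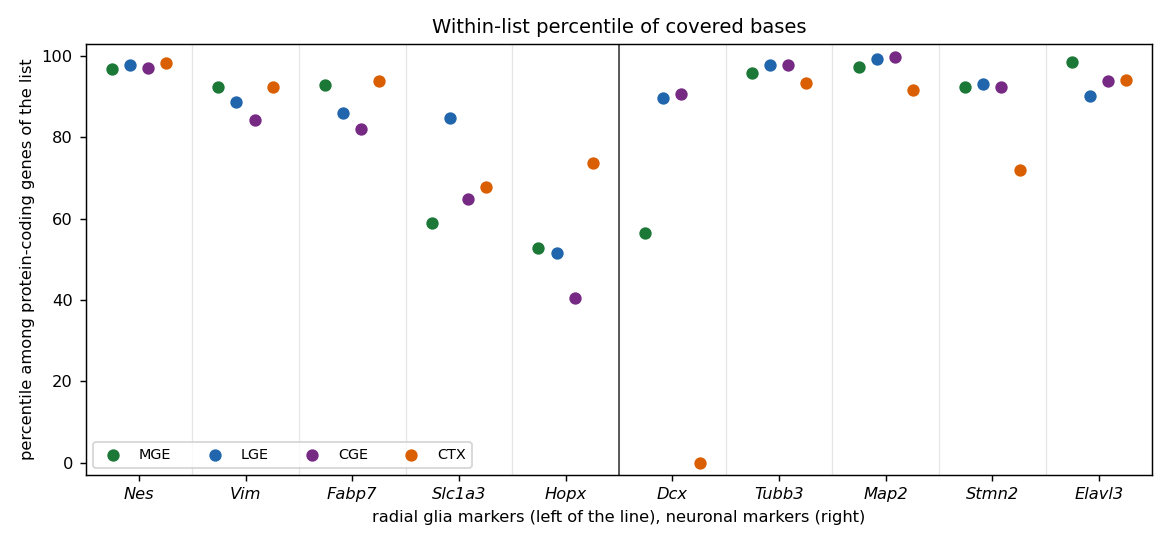
Percentage of protein-coding genes that covered fewer bases in the same list (vertical axis) for each of the 10 markers, with 1 point per region. For 4 of the 5 neuronal markers the CTX point is the lowest, from 93.3 for Tubb3 to 0.0 for Dcx, while for Nes, Fabp7 and Hopx it is the highest.

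At the 9 genes other than Hopx, whose peaks lie far inside the gene, most of the bases covered around the 5′ end lay downstream of it. The share ran from 69.7% for Fabp7 in CTX to 100.0%, and the median for marked protein-coding genes was 72.1% to 73.2%. The medians were 88.1%, 88.5%, 90.1% and 93.1% for the 4 radial glia genes in MGE, LGE, CGE and CTX, and 92.3%, 100.0%, 95.6% and 89.7% for the neuronal genes. The bases marked in all 4 lists were 71.1% of those marked in any for Vim, the highest share, 66.5% for Fabp7, 61.8% for Hopx and 45.9% for Slc1a3. Among the neuronal genes that share was 52.4% for Tubb3, 45.0% for Elavl3, 43.3% for Stmn2, 24.4% for Map2 and 0.0% for Dcx.

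Further genes of both classes were read in the same way, 15 known from radial glia and 15 from neurons. Of the radial glia genes all 15 had a peak in LGE and 14 in each of the other lists, and all 15 neuronal genes had one in each list. The gap was Tnc, the matrix protein tenascin C, with 1681 bases in LGE and no peak elsewhere. By mean percentile the highest were Hes5 (98.3), a Notch target, and Notch1 (97.5) in the first group and Elavl2 (99.5), a relative of Elavl3, and Mapt (97.9), which encodes tau, in the second. The lowest were Tnc (19.5) and Mfge8 (58.6), a secreted glycoprotein, and Stmn3 (67.8), a relative of Stmn2, and Syt1 (77.4), the calcium sensor of synaptic vesicles.

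The split between CTX and MGE seen in the 10 genes did not run through these lists. Of the further radial glia genes 9 of 15 covered more in CTX than in MGE, and of the further neuronal genes 6 of 15, beside the 56.7% of all genes given above. By percentile 9 of 15 and 5 of 15 were higher in CTX than in MGE. CTX had the lowest percentile at 0 of 15 and 4 of 15, beside 21.1% of protein-coding genes marked in any list. It had the highest at 8 of 15 and 2 of 15, beside 31.4%. The order CTX, MGE, LGE, CGE was found at 2 of 15 and 5 of 15, beside 27.3%. The split between CGE and LGE did not run through these lists either. More bases were covered in CGE than in LGE at 9 of 15 and 12 of 15, beside 80.2% of protein-coding genes. The median covered bases of the neuronal list were above those of the radial glia list in all regions, at 1959 against 1561 in MGE, 2209 against 2021 in LGE, 2818 against 2026 in CGE and 1763 against 1686 in CTX.

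Markers of other cells that embryonic tissue could hold were mostly without peaks. Of 24 such genes 9 had a peak in MGE and 9 in CTX, and fewer did in CGE (6) and LGE (4), with summed covered bases of 4416, 4617, 5662 and 3826 in that order. Among all protein-coding genes the share with a peak ran from 63.8% to 65.0%. The MGE and CTX lists also hold narrower peaks than LGE and CGE. Some of the covered stretches were small, such as 124 bases at Pecam1 in MGE and 138 at Dcn in CTX. The 4 microglial genes (Aif1, Cx3cr1, P2ry12 and Csf1r) had none in any list. Endothelial genes had 3 of 4 marked in MGE and 2 of 4 elsewhere, with Cldn5 and Kdr in every list and Cdh5 in none. Of 4 mural and fibroblast genes 2, 1, 2 and 3 were marked in MGE, LGE, CGE and CTX, with Pdgfrb in every list. Of 4 erythroid genes 2, 1, 2 and 2 were marked. Klf1 was marked in every list and Hba-a1 in all but LGE, while Gata1 and Hbb-bs were in none. Astrocyte genes had 1, 0, 0 and 2 of 4 marked, with Gfap in MGE and CTX and Aqp4 and S100b in none. Of 4 oligodendrocyte genes Sox10 was marked in MGE and the others in no list. Vim is active in several of these cell types, and their part in its values was not tested.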

How the data were processed

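H3K4me3 CUT&Tag libraries of 4 regions were analysed as 4 peak lists. The authors aligned paired-end reads to GRCm38/mm10 with Bowtie2, removed blacklisted regions and duplicates (Picard), merged replicates with SAMtools, ran Picard once more and used MACS in its broad mode. The MACS version, threshold and control are not given in the sources used here. The deposited lists give each peak a fold enrichment (a ratio over the caller's background), a −log10 q and a score derived from it, among others. The −log10 q grows with reads, so it was used only as a rank within a list, and the score was not used. Of the labels, 12 libraries in 2 replicates per region were mapped, a further number being taken as a repeat run.

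Covered bases, percentiles (genes with strictly fewer bases) and counts were computed with Python 3.11.15, scipy 1.17.1, pandas 2.3.3 and numpy 2.4.6, using GENCODE M21 starts, 5 kb windows and overlaps of at least 1 bp, and plotted with matplotlib 3.10.9. Starts within 500 bp of each other formed a group. On simulated peaks, covered bases equalled those counted base by base in all 200 runs. The members and lists were chosen with earlier results of these data known, and the comparison of CTX with MGE after the values were seen. All 10 members are named, and of the further lists the genes without a peak in some list and the 2 highest and 2 lowest by mean percentile. Genes named for other cell types were chosen after their values were seen.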

Additional observations from a re-analysis of the deposited data

How the results depend on the processing

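Windows, TSS choice, filters, list length, joined peaks, the measure and each gene left out were varied. The number of the 10 genes with a peak stayed within 1.5 times in 40 of 40 alternatives. Covered bases, called moved at any change, moved in 70 of 400. Percentiles moved in 264 of 400, where any value outside a narrow binomial interval over the 21951 genes was called moved, so small shifts count. The number of pairs in which the radial glia gene covered more moved, by more than 1.5 times, in 11 of 92. Since the rules differ, these counts cannot be set against each other. In MGE it went from 7 to 11 around the 5′ end alone, 4 at equal list length by fold, 4 without Nes and 3 without Dcx. In LGE it went from 4 to 18 by highest fold, 12 by highest −log10 q and 0 without Nes. In CGE it went from 3 to 18, 8 and 0 under the same alternatives, and in CTX from 15 to 8 at equal list length by fold. Leaving out a gene lowers the number of pairs by construction. For the other changes the cause was not tested. Of the radial glia genes more covered in CTX than in MGE, 5 became 3 at equal list length by fold and 3 where gaps under 1 kb between peaks were closed, and of the neuronal genes 0 became 1 around the 5′ end alone. These last alternatives were chosen after seeing the data. No paired analysis was possible because each list comes from merged replicates, and for the same reason none could be left out. The reads behind each peak are not in the lists, so the precision of peak edges could not be computed, and no alternative set the regions to equal read depth.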

Other observations

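Among the further radial glia genes, Pax6, a transcription factor of cortical and LGE progenitors, was singled out after its values were seen. It covered 5534 bases in CTX, 1062 in MGE, 5724 in LGE and 6739 in CGE, at the percentiles 100.0, 68.2, 99.8 and 99.8. MGE was far below the other 3 lists. Among the further neuronal genes Ina, which encodes the filament protein internexin, also named after its values were seen, covered 1298 bases in CTX, 1742 in MGE, 3104 in LGE and 3461 in CGE. Its percentile in CTX was 77.3, against 90.3 to 96.8 in the eminences, and its covered bases rose in the same order of lists as at Stmn2.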
